A study of Homo sapiens with 8 samples.

Results

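The genes DUSP4, DUSP5, DUSP6, SPRY1, SPRY2, SPRY4, SPRED1 and SPRED2 code for feedback inhibitors of the ERK pathway, and the binding of the transcription factor GATA2 around these 8 of 20037 protein-coding genes was described in VCaP cells with and without the BET inhibitor JQ1. The genes were chosen by name and their regions by the presence of a GATA2 peak in any of the 4 peak lists, where a peak counted for a gene when its summit lay within 100 kb of the span of that gene in RefSeq (GRCh38.p14). Peaks from separate lists were joined into one region if they shared 1 bp or more. This gave 32 of the 36122 regions of the study. They held 5 of the 4974 peaks of JQ1 replicate 1, 21 of the 32404 of JQ1 replicate 2, 12 of the 6902 of untreated replicate 1 and 25 of the 27373 of untreated replicate 2.

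VCaP is an established human line of castrate-resistant prostate cancer, and GATA2 was precipitated from its fixed chromatin and sequenced (ChIP-seq) in 2 replicates per treatment. JQ1 cells received 1 µM JQ1, a blocker of the bromodomains of BET proteins, for 24 h. The other cells are titled as non-treated and called untreated here, and the growth protocol gives DMSO for them. All cells had been without steroids for 72 h, and all come from the one line. The 4 input libraries have no list of their own here. Peak lists hold no RNA levels, so the cell type was not checked against markers, and the labels do not say whether replicates were separate cultures.

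GATA2 is a zinc-finger protein that binds the DNA letters GATA and, in prostate cells, works beside the androgen receptor and FOXA1. Growth factor receptors switch on RAS, which acts through the kinases RAF, MEK and ERK. Active ERK raises the transcription of its own inhibitors, and that loop limits the length and strength of the signal. DUSP4, DUSP5 and DUSP6 are phosphatases that remove the activating phosphates from ERK, the Sprouty proteins SPRY1, SPRY2 and SPRY4 hold back signalling between receptors and RAS, and SPRED1 and SPRED2 are Sprouty-related proteins that act on RAS.

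GATA2 peaks rarely lay on gene starts in these lists, and none lay on a listed start of these genes. The RefSeq promoter table (GRCh38.p14, the same build as hg38) holds 10 windows for 6 of the 8 genes, each with 250 bases before and 50 after a start, and 0 of the 10 was overlapped by a peak of any list, against 0.806% of all 35116 windows of the table, a share at which 10 windows would mostly show none. The letters AGATAA or TGATAA, read on both strands, were in 0 of the 10 windows and in 16.3% of all windows. The shorter core GATA, read on both strands, was in 45.6% of all windows over the 250 bases before the start. Among the 10 windows, those of DUSP6 and SPRY4 had 2 and 1 matches. A SPRY1 window had 3 and a SPRY2 window 2, and all other windows of these genes had 0. The 250 bases before the start are shown for DUSP6, which had the most regions, and SPRY2, which had none, at chr12:89352502-89352751 and chr13:80341127-80341376, both on the minus strand. Capitals mark GATA or its complement TATC, and the match is a description of letters, not of a bound site.
DUSP6: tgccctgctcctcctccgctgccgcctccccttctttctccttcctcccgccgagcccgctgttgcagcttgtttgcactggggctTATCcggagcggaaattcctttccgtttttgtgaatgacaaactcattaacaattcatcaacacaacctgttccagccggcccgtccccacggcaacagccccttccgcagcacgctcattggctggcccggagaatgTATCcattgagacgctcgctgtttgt
SPRY2: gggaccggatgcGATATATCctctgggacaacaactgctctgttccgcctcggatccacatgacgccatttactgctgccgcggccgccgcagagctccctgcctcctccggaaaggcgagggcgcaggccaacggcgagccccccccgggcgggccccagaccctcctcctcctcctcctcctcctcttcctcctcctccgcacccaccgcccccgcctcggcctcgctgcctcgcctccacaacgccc
The summit nearest to this DUSP6 start was 11.4 kb away and the one nearest to this SPRY2 start 126 kb away. Over the 10 windows the smallest distance from a start to a summit was 5.16 kb, at an inner start of SPRED2.

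GATA2 regions were most numerous around DUSP6 and DUSP4, where 4 at each gene were in a single list. DUSP6 had 8 regions, DUSP4 6 and DUSP5 5, against 5 for SPRY1, 4 for SPRED2, 2 each for SPRY4 and SPRED1 and 0 for SPRY2. The median was 4.5 regions per gene for the 8 genes, and 2 for all protein-coding genes. Their spans were shorter than those of most genes, with a median of 14.1 kb, against 24.1 kb for all genes. In all, 7 of the 8 genes had a region of any list, as did 77.5% of all protein-coding genes. Since the members were chosen with earlier results of these data known, and the rule reads the same peaks, these counts are given with no test.

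**Figure D1:**
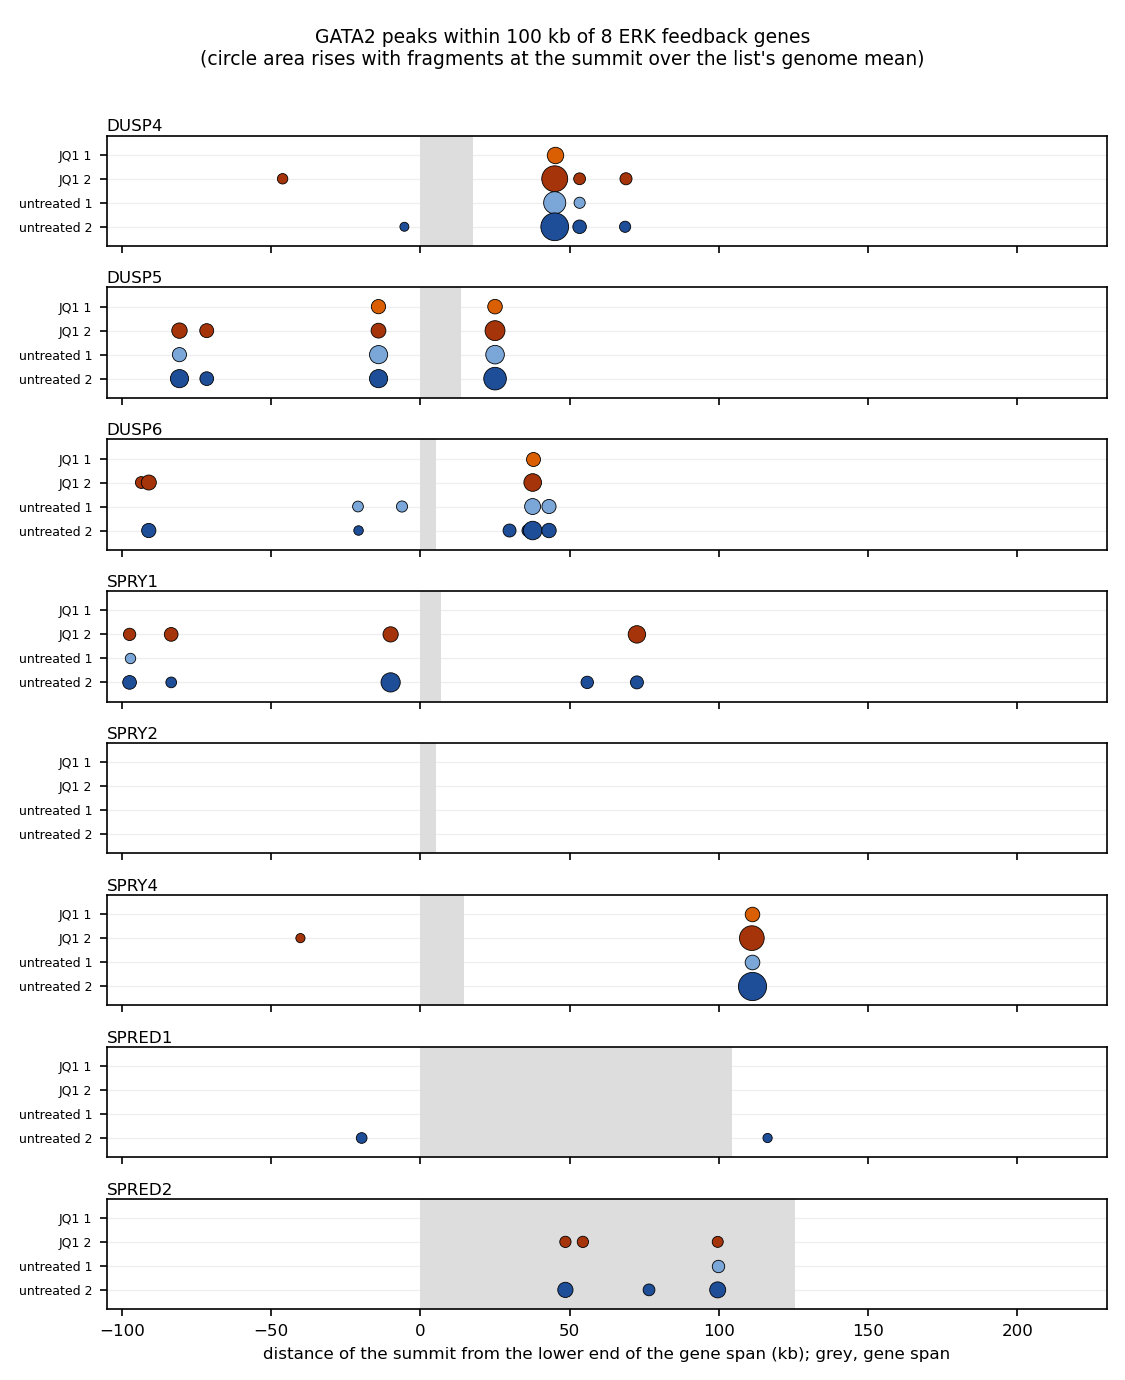
Position of every GATA2 peak within 100 kb of the 8 genes, as distance of the summit from the lower end of the gene span in kb, with 1 row per list and the span in grey. Circle area rises with the fragments at the summit over the list's genome mean, close neighbours in a list can overlie each other, and columns of 4 circles mark the 5 regions that were present in all 4 lists, at DUSP4, DUSP5, DUSP6 and SPRY4.

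The level of a region is given below in fragments, the whole number of sequenced fragments that cover the summit, which could be worked back from the authors' fold enrichment and p-value for 100% of the peaks in 3 lists and 99.997% in JQ1 replicate 2. The list's genome-wide mean was 1.13, 1.56, 1.25 and 1.96 fragments, in JQ1 replicates 1 and 2 and untreated replicates 1 and 2. Dividing by it gives a level that allows for depth but not for how well each precipitation worked, which was not tested. Comparisons of levels between lists, and their ratios, carry that limit. Intervals of levels are 95% Poisson intervals that cover counting error only, and fragments without molecular tags need not be independent molecules. The median peak held 20 and 24 fragments in the JQ1 lists and 22 and 37 in the untreated lists. At the genome mean, the weakest p-value of each list would need 7 and 8 fragments in the JQ1 lists and 8 and 11 in the untreated lists, and more where the local background is higher, so that a missing peak does not mean that no fragments were there. Ranks are by q-value within a list, and the top 1% holds the strongest peaks.

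Regions in all 4 lists lay at 4 of the 8 genes, all 3 DUSP genes and SPRY4. The 5 regions were 1 at DUSP4, 2 at DUSP5, 1 at DUSP6 and 1 at SPRY4. A region in all 4 lists was within 100 kb of 21.0% of all protein-coding genes. Both JQ1 lists shared a region at the same 4 genes, against 27.0% of all genes, and both untreated lists shared one at 6 of 8, with SPRY1 and SPRED2 in addition, against 36.0% of all genes. JQ1 replicate 1, the shortest list, had 5 peaks near these genes, and all 5 were in these regions. Most of its 4974 peaks over the whole study also lay in regions of all 4 lists, of which there were 3236. By class, 5 of the 32 regions were in all 4 lists (8.96% of all 36122 regions), 4 were in 3 lists (11.8%), 6 were in both replicate 2 lists only (38.0%) and 15 were in a single list (40.0%). Regions in both untreated lists and no JQ1 list numbered 2 (0.62% of all regions), those in both JQ1 lists and no untreated list 0 (0.377%), and those in another pair of lists 0 (0.332%). Both JQ1 lists held 5 of the 32 regions (13.1% of all) and both untreated lists 11 (17.6%). With replicate 2 alone, 15 of 31 regions, at 6 genes, were in the JQ1 and the untreated list, against 59.1% of all 35813 regions. With replicate 1 alone, 5 of 12 regions, at 4 genes, were in both, against 39.6% of all 8265.

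DUSP4 (gene ID 1846, 29333064 to 29350684 on chromosome 8), a nuclear phosphatase of ERK and related kinases, had the highest-ranking of these regions in 3 of the 4 lists. It lay at 29377863 to 29378257 on chromosome 8 (hg38), 27.4 kb above the higher end of the gene span and outside every listed protein-coding or long non-coding gene. Its summit held 30 and 107 fragments in the JQ1 lists, against 62 and 154 in the untreated lists. That is 26.6 and 68.5 times the genome mean with JQ1, and 49.5 and 78.7 times in untreated cells. Replicate 2 was above replicate 1 with either treatment, as at the median of all regions in all 4 lists. JQ1 was below untreated in each replicate. The region stood in the top 9.11% and 0.734% of the JQ1 lists and the top 1.30% and 4.08% of the untreated lists. The 4 summits were within 9 bp of each other.

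A weaker DUSP4 region followed at 35.7 kb, with 20 fragments in JQ1 replicate 2, and 14 and 34 in the untreated lists. JQ1 replicate 1 had no peak there. At 51 kb the replicate 2 lists had peaks that did not overlap, with summits at 51.3 kb in the JQ1 list (21 fragments) and at 51.0 kb in the untreated list (22 fragments). They count as separate regions of a single list although they are close neighbours. The other single-list regions were at 46.1 kb below the span, in JQ1 replicate 2, and at 5.34 kb below it, in untreated replicate 2. The one at 46.1 kb is nearer to KIF13B, a kinesin gene, at 23.5 kb.

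DUSP5 (gene ID 1847, 110497907 to 110511533 on chromosome 10), a nuclear phosphatase selective for ERK, was the only one of the 8 genes with a pair of regions in all 4 lists, 1 on either side of it. The region below the span, at 110483712 to 110484157 on chromosome 10, was 14.0 kb away inside the long non-coding gene DUSP5-DT. Its summit held 22 and 33 fragments in the JQ1 lists, against 41 and 64 in the untreated lists. Relative to the genome mean this was 19.5 and 21.1 with JQ1, and 32.7 and 32.7 in untreated cells, so that here the replicates of a treatment were closer to each other than the treatments were.

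The DUSP5 region above the span, at 110522706 to 110523079, was 11.4 kb away. It held 23 and 62 fragments in the JQ1 lists, against 43 and 101 in the untreated lists, which is 20.4 and 39.7 times the genome mean with JQ1 and 34.3 and 51.6 times in untreated cells. JQ1 was again below untreated within each replicate, while the treatments overlapped across replicates. A region 80.7 kb below DUSP5 was missing from JQ1 replicate 1 and held 36 fragments in JQ1 replicate 2, and 24 and 64 in the untreated lists. Another, 71.5 kb below, was in both replicate 2 lists, with 29 fragments with JQ1 and 35 untreated. Relative to the genome mean that was 18.6 times with JQ1 and 17.9 times untreated. A small peak at 10.8 kb was in JQ1 replicate 2 only, with 15 fragments.

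DUSP6 (gene ID 1848, 89347235 to 89352501 on chromosome 12), a cytoplasmic phosphatase selective for ERK, had the densest set, at 39.0 regions per Mb of its window, against a median of 8.80 over all genes. The gene is read from the minus strand, and 4 of its 8 regions lay on its upstream side between 24.6 and 37.8 kb. These 4 are also inside the listed span of POC1B-DUSP6, a read-through gene, so that only the other 4 have DUSP6 as the nearest protein-coding gene. The upstream region at 89384709 to 89385074 on chromosome 12, 32.4 kb away, was in all 4 lists. It held 21 and 48 fragments in the JQ1 lists, against 31 and 67 in the untreated lists, or 18.6 and 30.7 times the genome mean with JQ1 and 24.8 and 34.2 times in untreated cells.

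DUSP6 was also the only one of the 8 genes with regions in both untreated lists and in neither JQ1 list. There were 2 such regions, against 0 in the opposite direction over all 8 genes. Over all genes the median was 2 regions of any kind, against 8 for DUSP6. A region in both untreated lists only was near 1.97% of all genes, and one in both JQ1 lists only near 0.988%. In all, 18 genes, or 0.0898%, had 2 or more in the untreated lists only. With all lists held to the length of the shortest, DUSP6 had 0 such regions. The clearer one, at 89390079 to 89390454 and 37.8 kb upstream, had 24 and 39 fragments in the untreated lists, or 19.2 and 19.9 times the genome mean. At the same level and local background the JQ1 lists would have held 21.6 and 31.1 fragments, where 11 and 12 would have reached the list's weakest p-value. Signal in the JQ1 lists would thus be under 0.509 of the untreated level in replicate 1 and under 0.385 in replicate 2. This holds only if the local background was like that of untreated cells and every summit with such a p-value was called. The width that a peak needs was not considered.

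The other DUSP6 region of this kind, 20.9 kb downstream at 89326259 to 89326595, was at the limit of detection. Its untreated peaks held 13 and 15 fragments, with −log10 q of 2.66 and 2.01 and summits 193 bp apart. At the same level the JQ1 lists would have held 11.7 and 11.98 fragments, where 11 and 10 would have reached the list's weakest p-value. A JQ1 level under 0.940 of the untreated level in replicate 1, or under 0.835 in replicate 2, would thus go uncalled. The remaining DUSP6 regions split between lists. Untreated replicate 1 had a single-list peak 6.14 kb downstream, and untreated replicate 2 had them 24.6 and 30.8 kb upstream. JQ1 replicate 2 had one 93.5 kb downstream. Near it, at 90.9 kb, both replicate 2 lists had a peak with 34 fragments with JQ1 and 38 untreated. Relative to the genome mean the level there was higher with JQ1, at 21.8 times against 19.4 times untreated.

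Among the Sprouty genes, regions differed in number from 0 to 5. SPRY4 (gene ID 81848, 142310430 to 142325021 on chromosome 5), read from the minus strand, had its region in all 4 lists 96.5 kb upstream, at 142421289 to 142421665 on chromosome 5, inside the long non-coding gene SPRY4-AS1. It ranked higher in replicate 2 than in replicate 1, as did the median region in all 4 lists. The summit held 23 and 97 fragments in the JQ1 lists, against 26 and 159 in the untreated lists, that is 20.4 and 62.1 times the genome mean with JQ1 and 20.8 and 81.3 times in untreated cells. It stood in the top 28.2% and 1.58% of the JQ1 lists and in the top 29.3% and 1.41% of the untreated lists. The median region in all 4 lists stood in the top 37.5% and 7.44% of the JQ1 lists. In the untreated lists that median was in the top 28.9% and 7.92%, and the replicate 2 lists are longer. The other SPRY4 region, 40.2 kb downstream, was a peak of 11 fragments in JQ1 replicate 2.

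SPRY1 (gene ID 10252, 123396795 to 123403760 on chromosome 4) had 5 regions and none in JQ1 replicate 1. The nearest, 9.94 kb upstream at 123386685 to 123386988 on chromosome 4, held 35 fragments in JQ1 replicate 2 and 72 in untreated replicate 2. The region 65.6 kb downstream went the other way, with 47 fragments in JQ1 replicate 2 and 31 in untreated replicate 2. The region 83.4 kb upstream, inside AFG2A, had 28 fragments with JQ1 and 20 untreated in replicate 2. Also inside AFG2A, 97.4 kb upstream, a region held 22 fragments in JQ1 replicate 2, and 12 and 35 in the untreated lists. The fifth region, 48.9 kb downstream, was in untreated replicate 2 only, with 28 fragments.

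SPRY2 (gene ID 10253, 80335976 to 80341126 on chromosome 13), read from the minus strand, had no GATA2 peak within 100 kb in any list. The nearest was 121 kb away, in both replicate 2 lists with 19 to 25 fragments. Within 500 kb SPRY2 had 9 regions, against 8 for SPRED1 and 12 to 29 for the other 6 genes.

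The SPRED genes have long spans and had no region in both JQ1 lists. All 4 regions of SPRED2 (gene ID 200734, 65307175 to 65432599 on chromosome 2) lay inside its 125425 bp span, the only regions inside any of the 8 spans. The region at 65406684 to 65406879 held 17 fragments in JQ1 replicate 2, and 18 and 49 in the untreated lists. The one at 65355661 to 65355862 held 18 fragments in JQ1 replicate 2 and 44 in untreated replicate 2. Single-list peaks were at 65361535 to 65361717 in JQ1 replicate 2 and at 65383695 to 65383863 in untreated replicate 2, with 18 and 25 fragments. SPRED1 (gene ID 161742, 38252836 to 38357249 on chromosome 15), whose protein brings neurofibromin to the membrane to switch off RAS, had peaks in untreated replicate 2 only, 19.6 kb upstream and 11.9 kb downstream, with 20 and 14 fragments.

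The 100 kb limit passed close to some of these values. The farthest peaks inside it were those at SPRY1, 97.4 kb, and SPRY4, 96.5 kb. The nearest outside were 120.7 kb from SPRED2 and 121.1 kb from SPRY2, in both replicate 2 lists, and 122.9 kb from SPRY4, in JQ1 replicate 2. Next came one 125.3 kb from SPRED1, where a region was present in all 4 lists with −log10 q between 12.5 and 84.5. At a limit of 50 kb the SPRY4 region was lost and 3 genes, the DUSP genes, had a region in all 4 lists.

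The lists with JQ1 held fewer peaks near these genes than the untreated lists of the same replicate. In replicate 1 there were 5 with JQ1 and 12 untreated, a ratio of 0.417, where the whole lists had a ratio of 0.721. In replicate 2 there were 21 and 25, a ratio of 0.84, where the whole lists had 1.18. With all lists held to the length of the shortest the JQ1 list of replicate 1 held 5 and the untreated list 8, while each list of replicate 2 held 3, with no difference. Of the untreated regions, 58.3% in replicate 1 and 40.0% in replicate 2 had no JQ1 peak in the same replicate, against 51.3% and 19.2% over all regions. DUSP6 and SPRY1 had fewer JQ1 than untreated peaks in both replicates, which was so for 4.32% of all genes. More in both was seen at 0 of the 8 genes, against 3.85% of all genes. Both shares are over all genes, whose median was 2 regions, against 8 at DUSP6 and 5 at SPRY1. In replicate 1, SPRY1 had 0 peaks with JQ1 and 1 untreated. With 2 lists against 2, an exact permutation test cannot reach a p of 0.05, and none was run over the members.

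Where a region was called with both treatments of a replicate, JQ1 levels were mostly lower. In replicate 1 all 5 such regions had a lower level with JQ1, from 0.538 times the untreated level at DUSP4 to 0.983 times at SPRY4. In replicate 2, 11 of 15 did. Levels were higher with JQ1 71.5 kb below DUSP5 (1.04 times), 90.9 kb downstream of DUSP6 (1.12 times) and at SPRY1. The SPRY1 regions were those 65.6 kb downstream (1.90 times) and 83.4 kb upstream (1.75 times). The shift has to be read against that of all regions, whose median ratio was 0.859 in replicate 1 (3271 regions) and 0.873 in replicate 2 (21172 regions). Levels were below those of untreated cells at 67.2% of all such regions in replicate 1 and at 64.7% in replicate 2.

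**Figure D2:**
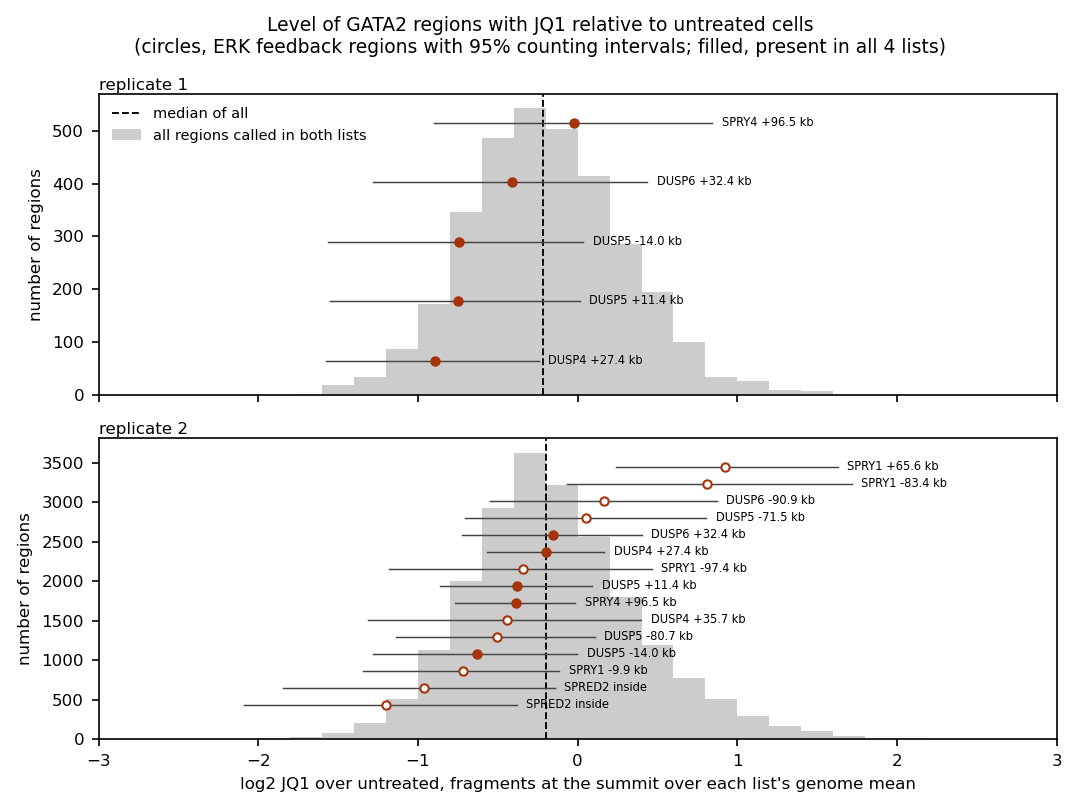
Log2 ratio of JQ1 over untreated, in fragments over the genome mean, for all regions called in both lists of a replicate (grey bars, number of regions) and for the regions of the 8 genes (circles, with 95% counting intervals and signed distance from the gene span). The dashed lines mark the medians of all regions at −0.22 and −0.20, and most circles have intervals that include them.

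By fragments over the genome mean, the 5 regions in all 4 lists were lower with JQ1 in both replicates, while by the authors' fold the order in replicate 2 turned at DUSP4, DUSP6 and DUSP5 below the span. The log2 ratio was −0.90 and −0.20 at DUSP4, −0.75 and −0.63 at DUSP5 below the span, −0.75 and −0.38 at DUSP5 above it, −0.41 and −0.16 at DUSP6, and −0.02 and −0.39 at SPRY4, in replicates 1 and 2. Of the 3236 regions in all 4 lists, 60.4% were below 0 in both replicates. Their median log2 ratio was −0.22 in replicate 1 and −0.30 in replicate 2, where 82.5% were below 0, so that DUSP4 and DUSP6 lay above the median of such regions in replicate 2. The 95% counting interval of the DUSP4 ratio in replicate 1 ran from 0.336 to 0.844, just under the median of all regions, while in replicate 2 it ran from 0.674 to 1.12. The intervals of the replicates overlapped, and the gap of 0.69 in log2 between the replicates stood at percentile 95.6 of all regions in all 4 lists.

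The outermost ratios were those of replicate 2, at regions with no peak in JQ1 replicate 1. At SPRED2 the ratio was 0.435 (counting interval 0.235 to 0.768) at 65406783 and 0.512 (0.279 to 0.905) at 65355766, which lay at percentiles 1.44 and 4.56 of the regions shared in that replicate. At SPRY1 it was 1.90 (1.18 to 3.09) for the region 65.6 kb downstream and 1.75 (0.953 to 3.28) for the one 83.4 kb upstream, at percentiles 96.2 and 94.8, and 0.609 (0.394 to 0.924) for the nearest region at 9.94 kb. SPRY1 regions thus lay on both sides of the median, with no second replicate to compare.

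**Figure D3:**
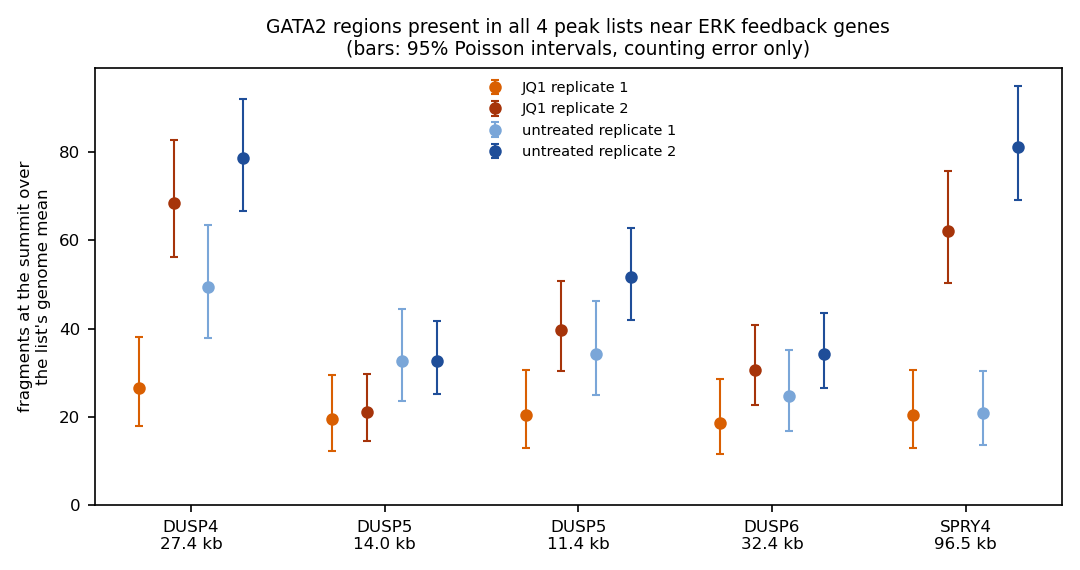
Fragments at the summit over the genome mean of the list, for the 5 regions present in all 4 lists, with the distance from the gene span under each name. Bars are 95% Poisson intervals, and in each replicate the JQ1 point is below the untreated point, by least at SPRY4 in replicate 1 (20.4 and 20.8).

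The authors' fold enrichment, which divides by the local background, ordered the treatments differently at 5 of the 15 regions of replicate 2, and so it did at 33.2% of all regions shared there. At DUSP4 the fold was 42.2 with JQ1 and 17.8 untreated in replicate 2, although the fragments over the genome mean were 68.5 and 78.7. The local background at that summit was 1.00 times the genome mean in the JQ1 list and 3.72 times in the untreated list. In fragments this was 1.56, the lowest value that the caller uses in that list, and 7.29. No counting interval was worked out for local backgrounds, and whether they differ between the treatments was not tested. Over the 15 regions the median local background was 1.30 times the genome mean with JQ1 and 2.23 times untreated, and over all peaks of these lists it was 1.77 and 1.58 times. The same change of order was seen at DUSP5 below the span, DUSP6 at 32.4 kb and SPRED2 at 65406783, and in the other direction at SPRY1 at 65.6 kb, where the local background was 3.55 times the mean with JQ1 and 1.13 times untreated. In replicate 1, 0 of the 5 regions changed order.

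**Figure D4:**
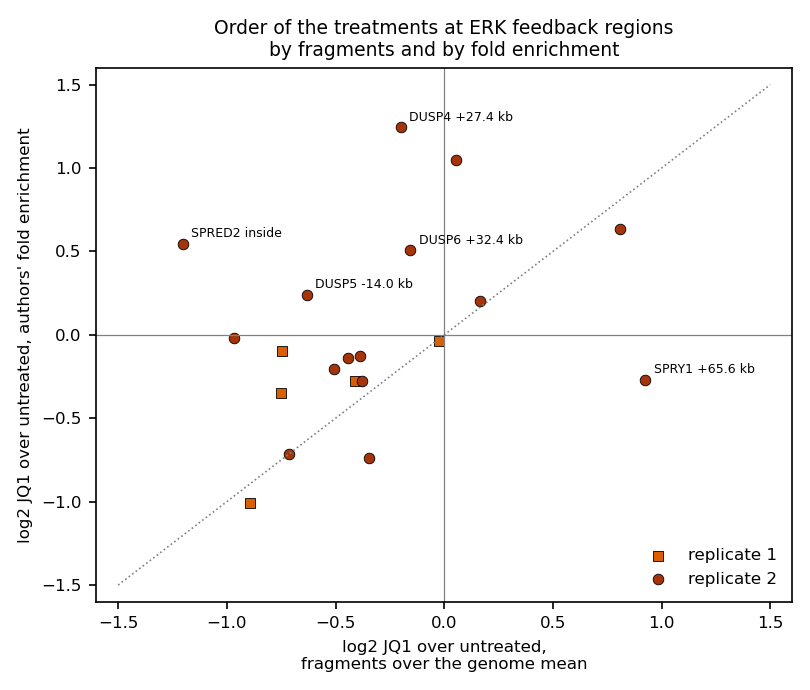
Log2 JQ1 over untreated for regions of the 8 genes called with both treatments of a replicate, by fragments over the genome mean (x axis) and by the authors' fold enrichment (y axis). The 5 named points, all of replicate 2, lie in the quadrants where the measures give opposite orders, and the dotted line marks equal values.

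The 4 summits of each region in all 4 lists lay close together. Their spread ran from 9 bp at DUSP4 to 41 bp at DUSP6, against a median of 24 bp over the 3236 regions of that kind. In JQ1 replicate 1 the 5 regions had a median rank in the top 28.2%, and all regions in 4 lists one in the top 37.5%.

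Other genes of the pathway were read from 6 lists with 81 genes. A region in all 4 lists lay near 1 of 7 other MAP kinase phosphatases (DUSP16), 2 of 12 other inhibitors (LRIG1 and ERRFI1, which restrain ErbB receptors), 3 of 14 ligands (HGF, HBEGF and FGF2) and 4 of 13 receptor tyrosine kinases (FGFR1, MET, IGF1R and ERBB4). It lay near 3 of 18 adaptors and core pathway genes (PTPN11 among them) and 5 of 17 ERK-induced genes (ETV1, PHLDA1, EPHA4, JUN and IER2). These shares run from 14.3% to 30.8%, around the 21.0% of all genes. Regions in both JQ1 lists were near 2, 3, 4, 5, 3 and 5 genes of these lists in the same order, and regions in both untreated lists near 2, 3, 5, 7, 4 and 7.

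**Figure D5:**
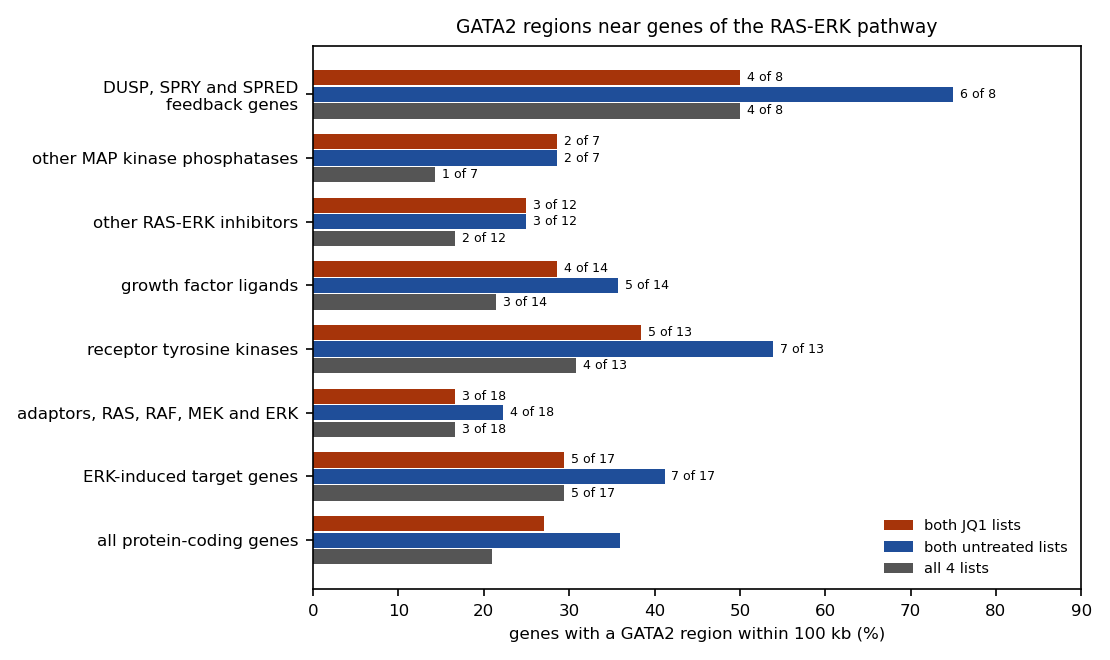
Share of genes with a GATA2 region within 100 kb, in percent, for the 8 feedback genes, 6 lists of pathway genes and all protein-coding genes, with the number of genes beside each bar. The feedback genes, which were chosen with results known, have 50% in all 4 lists, and the other lists lie between 14.3% and 30.8%.

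A region in both JQ1 lists and neither untreated list was near DUSP10 and NF1, the gene of neurofibromin, that is 2 of the 81 genes, against 0.988% of all genes. A region in both untreated lists and neither JQ1 list was near FGFR1, 1 of the 81, against 1.97% of all genes. Of the pathway genes named here, the ETS factor gene ETV1 had the best mean rank. The ETV1 region had 63 and 102 fragments in the JQ1 lists, against 60 and 178 in the untreated lists.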

How the data were processed

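GATA2 ChIP-seq peak lists of 2 JQ1 and 2 untreated precipitates of VCaP cells were used. The submitters' processing notes name the tools Bowtie2, MACS2 and Picard and the build hg38. Which version of each ran is not given in the sources used here, and total reads per library are unknown. The deposited lists were called per precipitate. They give the authors' fold enrichment, a linear ratio at the summit, the authors' −log10 p and −log10 q, and a whole-number score that was not used here. Peaks outside the main chromosomes were dropped, 10 lines of JQ1 replicate 1 and 8 of untreated replicate 2.

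Fragments and local background were solved from fold and p-value as a Poisson tail, with a pseudocount of 1 in the fold and a tolerance of 0.002 on −log10 p, and the step was tested on simulated data. In untreated replicate 2 the caller's values fitted fragments scaled by 0.686. Gene spans and promoter windows are from RefSeq GRCh38.p14. Members, lists and measures were chosen with earlier results of these data known. All 8 members are named, with each region in all 4 lists and each separated one. Of each pathway list, genes with a region in all 4 lists are named, at most 6 by mean rank, and some of these genes are not reported here. Ratios carry exact 95% binomial intervals for counting error. Alternatives changed the distance, gene assignment, q-value, list length, overlap and replicates used. Work was done in Python 3.11.15 with pandas 2.3.3 and scipy 1.17.1.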

Additional observations from a re-analysis of the deposited data

How the results depend on the processing

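No paired analysis was possible because no test was fitted that could hold a replicate block. Ratios and presence are given within each replicate number, and the labels do not say whether JQ1 and untreated samples of a number were matched. The 5 regions in all 4 lists became 4 within 50 kb or by nearest gene, stayed at 5 at a q-value of 1e-05 or less and with a reciprocal overlap of 50%, and became 3 in lists of equal length (4974 peaks each), as did the regions in both JQ1 and in both untreated lists. Equal length also gave 8 regions in all, 3 peaks in each replicate 2 list and 0 untreated-separated regions. The 2 untreated-separated regions became 1 by nearest gene and 1 at the stricter q-value. Within 50 kb, JQ1 replicate 2 had 12 peaks. Leaving out replicate 1 or replicate 2 gave 12 to 31 regions in all, 5 to 21 in the JQ1 list, 12 to 25 in the untreated list, 5 to 15 in both, at 4 to 6 genes, 0 to 6 in the JQ1 list only and 7 to 10 in the untreated list only. With the authors' fold in place of fragments, chosen after seeing the data, log2 JQ1 over untreated in replicate 2 turned to 1.25 at DUSP4, 0.24 at DUSP5 below the span and 0.51 at DUSP6. The values of the local background differed between the treatments there, with no counting interval worked out for them. Local background enters the authors' fold, p-value and q-value, and so the ranks. It is not subtracted from the fragments, which count everything that covers the summit.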
